A study of Mus musculus with 12 samples.

Results

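The response of hippocampal microglia to cranial irradiation was compared between 2 inbred mouse strains, as the irradiated minus sham difference in Balb/c less the same difference in C57BL/6. This difference of differences is called the interaction below, and it is above 0 where the response of Balb/c was the higher one. Of 18193 genes on the array, 9120 were tested, each through its brightest probe set by the mean of the 12 arrays, and only where its log2 value exceeded 5 in 3 or more of them. Female mice of both strains were treated at 6.5 weeks of age, either with X-rays (10 Gy in a single dose, forebrain field of 1 cm) or with a sham procedure. CD11b+ cells were sorted from the hippocampus 1 month later, at 10.5 weeks, from 3 mice in each of the 4 groups: C57BL/6 sham, C57BL/6 irradiated, Balb/c sham and Balb/c irradiated. RNA from 5000 to 10000 cells of each mouse went through 2 rounds of linear amplification before hybridisation to 1 Affymetrix array. No genotype beyond the strain is given, and CD11b marks other myeloid cells as well as microglia, so the sort can hold both.

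Microglia are the resident macrophages of the brain. They renew themselves by local division, survey the tissue, clear debris and answer to interferons and cytokines. Ionising radiation breaks DNA, and the transcription factor p53 then induces Cdkn1a and other genes that hold the cell cycle, while type I interferons raise a set of antiviral effectors and GTPases. Balb/c and C57BL/6 also carry different MHC haplotypes and different alleles of several interferon-induced genes, so a gene can differ in level between the strains without any treatment.

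The values were log2 intensities with the same distribution on all 12 arrays, from 2.23, the bottom of the scale, to 16.2, and 35.3% of probe sets lay above 5 on each array. P2ry12, the ADP receptor of surveying microglia, was bright in all 4 groups, at means of 13.94, 13.96, 14.18 and 14.06. The 3′ minus 5′ probe difference of the control transcripts Actb and Gapdh, which grows as amplified RNA gets shorter, had means of 3.64 and 3.63 (log2) in C57BL/6 sham and irradiated arrays and of 3.69 and 4.25 in Balb/c, with an interaction of 0.572 (exact permutation test within strains over 400 permutations, two-sided, p = 0.165). The 18S control signal had means of 12.16 and 11.69 in C57BL/6 sham and irradiated arrays and of 12.19 and 11.19 in Balb/c. It was thus lower in irradiated arrays of both strains, with an interaction of -0.53 (exact permutation test as before, p = 0.455). These permutations exchange sham and irradiated arrays within a strain. A response shared by the strains widens their spread, so neither p measures the interaction alone or shows that RNA quality was even. The array Balb/c irradiated replicate 2 stood apart by its 3′ minus 5′ difference, and C57BL/6 irradiated replicate 3 had the lowest correlation with its group. Both are left out together as an alternative below.

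Most genes that responded in one strain moved the same way in the other. An adjusted p under 0.05 in limma is called a call here. Irradiation gave 335 calls in C57BL/6, or 3.67% of the genes tested, with 202 higher (2.21%) and 133 lower (1.46%). In Balb/c it gave 561 calls (6.15%), 297 higher (3.26%) and 264 lower (2.89%). The order of the strains turned with covariates of RNA quality: the 3′ minus 5′ difference gave 281 calls in C57BL/6 and 104 in Balb/c, and the 18S signal 266 and 39. The strains shared 148 calls of the same sign, which are 44.2% of the C57BL/6 calls and 26.4% of the Balb/c calls. The response had the same sign in the other strain for 309 of the 335 genes and for 535 of the 561 genes, against 6211 (68.1%) of all genes tested. Across genes, which are not independent replicates, the responses of the strains had a Pearson correlation of 0.63 and a Spearman correlation of 0.50.

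The interaction itself was called for 7 genes, 0.0768% of those tested, 4 higher (0.0439%) and 3 lower (0.0329%) in Balb/c. At an unadjusted p under 0.05 it took in 735 genes (8.06%), 330 above and 405 below 0 (3.62% and 4.44%). A difference of differences carries the error of all 4 groups, and its median standard error was 0.245 on the log2 scale against 0.174 for the response of a single strain. The smallest interaction that was called was 1.15, a 2.21-fold difference, and the number of arrays, 3 a group, limits the precision. The 4 genes called higher were Ifi44l, Il6, Ly6e and Chsy1, and the 3 called lower were Mcm5, Oasl2 and D630023F18Rik. In 3 of the 7, Ifi44l, Oasl2 and D630023F18Rik, at least 1 group had a mean below 4, near the bottom of the scale, where a change in that group may not show.

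**Figure D1:**
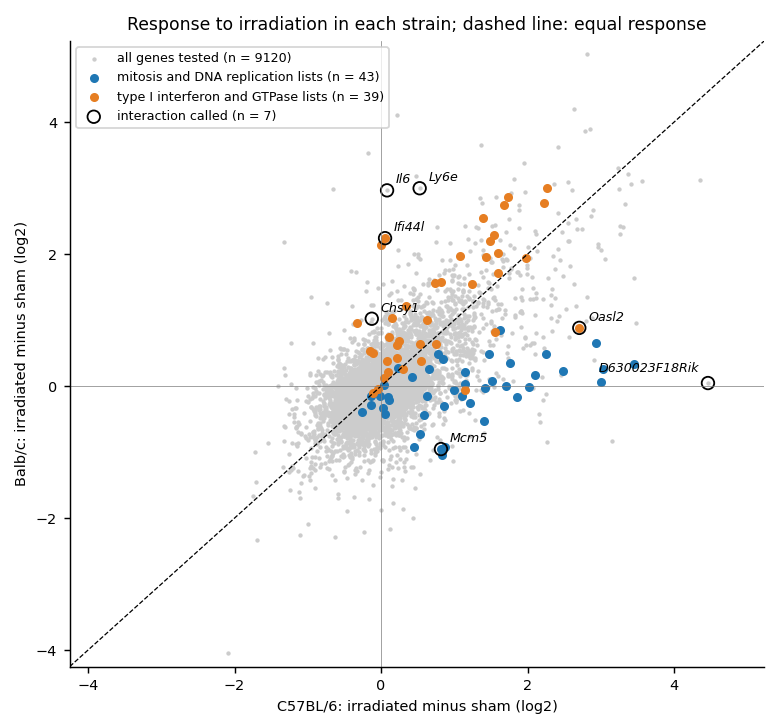
Response to irradiation of each gene tested, irradiated minus sham in log2 units, in C57BL/6 on the horizontal and in Balb/c on the vertical axis; the dashed line marks an equal response. Genes of the mitosis and DNA replication lists lie mostly below the line, genes of the type I interferon and GTPase lists mostly above it, and the 7 genes with a called interaction are ringed and named.

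Il6, the gene of the cytokine interleukin 6, rose in Balb/c and not detectably in C57BL/6. Its log2 levels were 8.87, 9.38 and 9.81 for C57BL/6 sham and 9.40, 9.67 and 9.22 for C57BL/6 irradiated mice. Balb/c levels were 6.37, 6.74 and 6.44 in sham and 9.47, 9.49 and 9.49 in irradiated arrays. The C57BL/6 groups overlapped, the Balb/c groups did not, and the irradiated Balb/c arrays lay within the range of the irradiated C57BL/6 arrays. Over all genes tested, sham and irradiated arrays did not overlap for 26.5% in C57BL/6 and 29.2% in Balb/c. The rise in Balb/c was 2.97 ± 0.21 (log2 ± SE, n = 3 a group, adjusted p = 4.64e-05), the change in C57BL/6 was 0.08 ± 0.21 (adjusted p = 0.853), and the interaction was 2.88 ± 0.30, a 7.38-fold difference in response (adjusted p = 0.00609). Sham Balb/c arrays were lower than sham C57BL/6 arrays (difference -2.83 ± 0.21, adjusted p = 8.67e-06), while irradiated arrays differed by 0.05 ± 0.21 (adjusted p = 0.921). Its call was lost without a filter on dim probe sets and without both arrays that stood apart (adjusted p up to 0.0565 over 24 alternatives), and it held with each array left out in turn.

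Ly6e, a membrane protein of the Ly6 family that interferons induce, had the same form. It stood at 11.19, 11.23 and 11.29 in C57BL/6 sham, 11.91, 11.60 and 11.78 in C57BL/6 irradiated, 8.33, 8.28 and 8.08 in Balb/c sham and 11.58, 10.61 and 11.48 in Balb/c irradiated arrays. Sham Balb/c was the low group, 2 of the 3 irradiated Balb/c arrays lay within the range of the C57BL/6 arrays, and the groups did not overlap in either strain. The response was 2.997 ± 0.22 in Balb/c (adjusted p = 4.64e-05) and 0.53 ± 0.22 in C57BL/6 (adjusted p = 0.193), with an interaction of 2.47 ± 0.31 (adjusted p = 0.0165). A second probe set of Ly6e gave 2.56. The adjusted p rose to between 0.0512 and 0.0697 without any 1 of 7 arrays: C57BL/6 sham replicates 1 and 2, C57BL/6 irradiated replicates 2 and 3, Balb/c sham replicates 1 and 2, and Balb/c irradiated replicate 3.

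Chsy1, a chondroitin sulfate synthase, moved in the same direction by less. Its levels were 13.21, 13.20 and 13.16 in C57BL/6 sham, 13.08, 13.07 and 13.04 in C57BL/6 irradiated, 10.84, 10.95 and 11.21 in Balb/c sham and 12.18, 12.02 and 11.85 in Balb/c irradiated arrays. Every Balb/c array stayed below every C57BL/6 array, and the gap narrowed from 2.19 to 1.04 on the log2 scale. The interaction was 1.15 ± 0.17 (adjusted p = 0.0498), just inside the threshold. Leaving out any array but Balb/c sham replicate 3 ended the call, with an adjusted p of up to 0.206 over 24 alternatives.

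Ifi44l, an interferon-induced antiviral gene, was measured in Balb/c and lay at the bottom of the scale in C57BL/6. The C57BL/6 arrays were at 2.36, 2.26 and 2.25 in sham and 2.55, 2.23 and 2.26 in irradiated mice. Balb/c arrays were at 7.67, 7.70 and 7.24 in sham and 9.84, 9.69 and 9.81 in irradiated mice, without overlap. The rise in Balb/c was 2.24 ± 0.14 (adjusted p = 4.55e-05) and the interaction 2.19 ± 0.20 (adjusted p = 0.00365), which a second probe set gave as 2.74. It was called in all 24 alternatives. No response in C57BL/6 could be read from a signal at the bottom of the scale, so the data do not show that the gene failed to respond there.

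**Figure D2:**
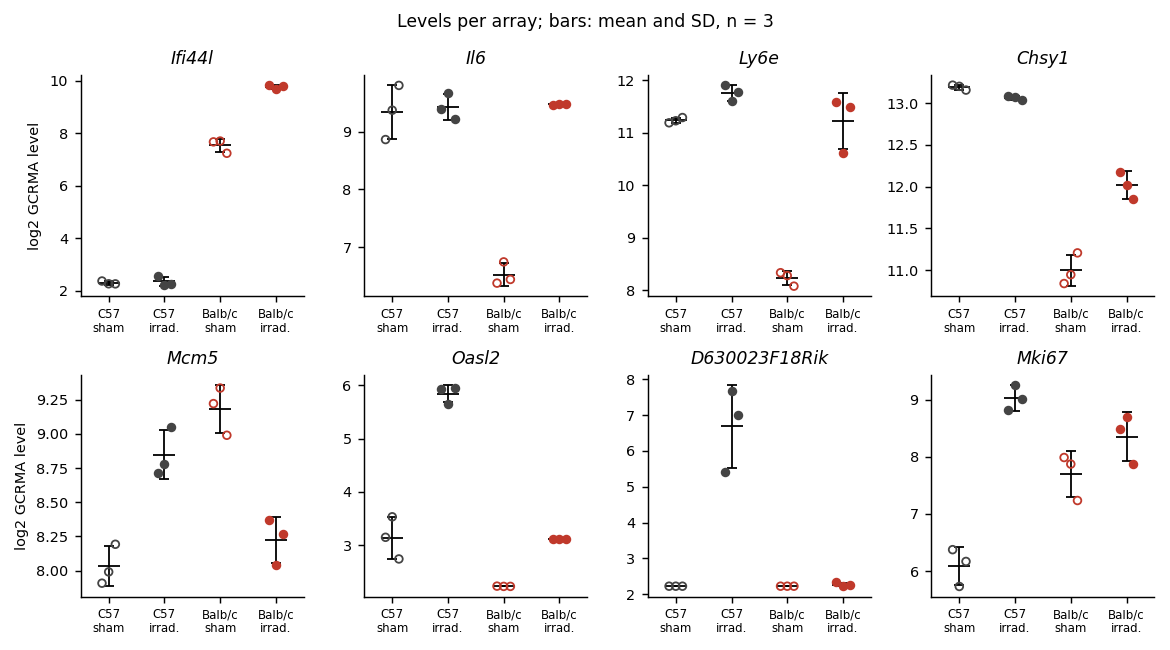
Log2 level on each array (points; open for sham, filled for irradiated; grey for C57BL/6, red for Balb/c) with group mean and SD (bars, n = 3) for the 7 genes with a called interaction and for Mki67, each on its own axis. Sham Balb/c is the low group for Il6, Ly6e and Chsy1, while Mcm5 rises in C57BL/6 and falls in Balb/c.

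Mcm5, a subunit of the helicase that unwinds DNA for replication, was the 1 gene called in both strains with opposite signs. It stood at 7.91, 7.99 and 8.19 in C57BL/6 sham and 8.71, 8.78 and 9.05 in C57BL/6 irradiated arrays. Balb/c arrays were at 9.22, 9.33 and 8.99 in sham and 8.37, 8.04 and 8.27 in irradiated arrays. Neither pair of groups overlapped, as was so for 26.5% of all genes tested in C57BL/6 and 29.2% in Balb/c. It rose by 0.82 ± 0.14 in C57BL/6 (adjusted p = 0.0144) and fell by 0.95 ± 0.14 on the log2 scale in Balb/c (adjusted p = 0.00435), an interaction of -1.77 ± 0.20 (adjusted p = 0.0101). Sham Balb/c was higher than sham C57BL/6 by 1.15 ± 0.14 (adjusted p = 4.06e-04). The interaction was called in 20 of 24 alternatives, not without Balb/c sham replicate 1 (adjusted p = 0.0578) nor with the 3′ minus 5′ difference as a covariate (adjusted p = 0.0630), without a filter or without both arrays that stood apart. Its probe set is of the kind the array's maker marks as able to bind related transcripts.

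More genes of cell division were called higher in C57BL/6 than in Balb/c, while no interaction on the mitosis list was called. A list of 45 mitosis genes (44 on the array) had 20 members tested, and all 20 had an interaction below 0, with a median of -1.33, against 52.7% below 0 and a median of -0.02 over all genes tested. Of these, 13 had an unadjusted p under 0.05, against 4.44% of all genes tested with an interaction below 0 at that threshold. In C57BL/6, 10 of the 20 rose (2.21% of all genes tested) and none fell, with a median response of 1.44. In Balb/c 1 rose (3.26% of all genes tested), the kinetochore gene Nuf2, at 0.84 ± 0.20 (adjusted p = 0.0350). None fell, and the median response was 0.16. Sham Balb/c already had higher levels for 9 of the 20 (5.22% of all genes tested), with a median difference of 1.06 and none lower (5.24%). Members that were dim in 1 group could pass the filter only through another, so the count was also taken without it. Of the 44 on the array, 36 had an interaction below -0.1, 8 lay within 0.1 of 0 and none above, and 16 never rose above 5 on any array. Of all 18193 genes on the array, 4693 lay below -0.1, 9282 within 0.1 of 0 and 4218 above, and 8642 never rose above 5.

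The mean log2 level of the 20 mitosis genes showed where the arrays differed. It was 6.52, 6.58 and 6.87 in C57BL/6 sham and 7.94, 8.22 and 8.25 in C57BL/6 irradiated arrays. It was 7.81, 7.65 and 7.58 in Balb/c sham and 7.91, 8.07 and 7.53 in Balb/c irradiated arrays. Sham C57BL/6 was the low group, irradiated C57BL/6 overlapped with irradiated Balb/c, and the Balb/c groups overlapped with each other. In bulk RNA, a different share of dividing cells and a different amount of RNA per cell cannot be told apart.

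Mki67, the proliferation marker Ki-67, stood at 6.37, 5.73 and 6.17 in C57BL/6 sham and 8.81, 9.26 and 9.01 in C57BL/6 irradiated arrays. Balb/c arrays were at 7.99, 7.87 and 7.23 in sham and 8.49, 8.69 and 7.88 in irradiated arrays, which overlapped. Its interaction of -2.28 ± 0.37 had an adjusted p of 0.0822 (0.0336 to 0.290 over 24 alternatives, with a call without Balb/c sham replicate 3 at 0.0426). Cdk1, the kinase that drives entry into mitosis, had an interaction of -1.93 ± 0.32 (adjusted p = 0.0857), with a response of 2.10 ± 0.23 in C57BL/6 (adjusted p = 0.00121) and 0.17 ± 0.23 in Balb/c (adjusted p = 0.709). It was called without Balb/c irradiated replicate 1 (adjusted p = 0.0350). Top2a, the topoisomerase that untangles replicated DNA, gave -1.70 ± 0.29 (adjusted p = 0.102), and Cenpa, the centromeric histone, -1.41 ± 0.27 (adjusted p = 0.172). Both rose in C57BL/6, by 1.70 ± 0.21 and 1.76 ± 0.19 (adjusted p = 0.00240 and 0.00121), while in Balb/c their changes were 0.00 ± 0.21 and 0.35 ± 0.19 (adjusted p = 0.993 and 0.313).

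Genes of DNA replication and nucleotide synthesis went the same way. Of 38 on the list, 36 were on the array and 23 tested. An interaction below 0 was found for 22 of them, with a median of -1.05. Of these, 14 had an unadjusted p under 0.05 (4.44% of all genes tested), with Mcm5 alone called. The exception was the helicase subunit Mcm4 at 0.05 ± 0.26, named after its value was seen. In C57BL/6 4 rose (2.21% of all genes tested) and none fell, with a median of 0.63. In Balb/c Mcm5 fell (2.89% of all genes tested), none rose, and the median was -0.22. Without the filter, 26 of the 36 lay below -0.1 and 2 above 0.1, against 4693 and 4218 of all 18193 genes on the array. Their mean level was 7.34, 7.15 and 7.45 in C57BL/6 sham and 7.999, 8.16 and 8.16 in irradiated arrays, and 8.07, 8.06 and 7.94 in Balb/c sham and 7.91, 7.85 and 7.51 in irradiated arrays. Neither strain's groups overlapped, and the order of sham and irradiated was opposite in the strains. Together the mitosis and replication lists made up 43 of the 9120 genes tested. They held 27 of the 405 genes with an unadjusted p under 0.05 and an interaction below 0.

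Rrm2, the small subunit of ribonucleotide reductase, which makes the building blocks of DNA, had the widest interaction of the replication list. Its levels were 5.70, 5.32 and 5.57 in C57BL/6 sham, 8.81, 9.11 and 9.04 in C57BL/6 irradiated, 8.88, 7.34 and 8.49 in Balb/c sham and 8.82, 9.34 and 7.54 in Balb/c irradiated arrays. C57BL/6 sham was the only low group. The interaction was -3.12 ± 0.63 (adjusted p = 0.188). Gins1, a part of the replicative helicase complex, gave -1.79 ± 0.35 (adjusted p = 0.172), and Rrm1, the large subunit of the reductase, -1.01 ± 0.28 (adjusted p = 0.408).

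The promoters of these genes are shown because many mitotic genes are known to carry a cell cycle homology region, with the core TTTGAA, near CCAAT boxes. In windows from 250 bases before to 50 after the annotated start (RefSeq, GRCm38.p6), 16 of the 20 mitosis genes had an entry. TTTGAA, searched on both strands, was found in 11 of these 16 (68.8%), against 17.9% of all 32851 windows and 14.0% of the 7476 tested genes with an entry. Counting only the 250 bases before the start, it was in 6 of 16 (37.5%), against 16% of all windows. CCAAT was found in 11 of 16 mitosis genes (68.8%) and in 14 of 20 replication genes (70.0%), against 37.4% of all windows and 42.6% of tested genes. That share was not particular to these lists. It was 76.5% for p53 targets and 80% for genes of cholesterol synthesis and efflux, and 26.9% for ribosomal proteins and 33.3% for the respiratory chain. TTTGAA was in 3 of the 20 replication genes (15%). The 250 bases before the start of Cdk1 (chr10:69352913-69353162, minus strand) and Top2a (chr11:99024190-99024439, minus strand) follow, on the gene's strand, with TTTGAA and CCAAT on either strand in capitals. Both were picked for display after their values were seen.
Cdk1: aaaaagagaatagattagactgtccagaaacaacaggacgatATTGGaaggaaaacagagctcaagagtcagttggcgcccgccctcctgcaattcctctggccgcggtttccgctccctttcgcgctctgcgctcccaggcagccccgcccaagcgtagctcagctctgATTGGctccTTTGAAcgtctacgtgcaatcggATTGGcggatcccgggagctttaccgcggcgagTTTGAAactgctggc
Top2a: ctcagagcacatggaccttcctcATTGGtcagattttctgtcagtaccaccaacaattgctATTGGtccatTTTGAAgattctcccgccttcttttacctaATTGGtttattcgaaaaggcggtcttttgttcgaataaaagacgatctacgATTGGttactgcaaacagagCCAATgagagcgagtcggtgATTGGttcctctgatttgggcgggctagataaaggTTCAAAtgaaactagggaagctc
The nearest TTTGAA began 15 bases before the start of Cdk1 and 23 before that of Top2a. Cdk1 held 2 matches to TTTGAA and 3 to CCAAT, and Top2a held 2 and 6. A match is a description of the letters and not a bound site.

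Of 24 p53 targets tested, 8 rose in C57BL/6 (median response 0.24) and 10 in Balb/c (median 0.52), and none was called lower in either. Over all genes tested, 2.21% were called higher in C57BL/6 and 3.26% in Balb/c. At an unadjusted p under 0.05 the interaction was below 0 for 3 and above 0 for none, against 4.44% and 3.62% of all genes tested. Of the 24, 9 had an interaction below and 15 above 0, with a median of 0.05. That median ran from 0.0057 to 0.12 with single arrays left out. Cdkn1a, the inhibitor of cyclin-dependent kinases, rose by 4.35 ± 0.21 in C57BL/6 (adjusted p = 3.90e-06) and by 3.12 ± 0.21 in Balb/c (adjusted p = 4.55e-05). Its levels were 7.61, 7.54 and 8.39 in C57BL/6 sham, 12.34, 12.19 and 12.05 in C57BL/6 irradiated, 9.47, 9.30 and 9.60 in Balb/c sham and 12.41, 12.58 and 12.72 in Balb/c irradiated arrays. The irradiated arrays of both strains lay far above both sham groups, and the sham groups stood 1.61 ± 0.21 apart (adjusted p = 4.86e-04). Its interaction of -1.23 ± 0.29 was not called (adjusted p = 0.279), except without C57BL/6 sham replicate 3 (adjusted p = 0.0294). Ccng1, a p53-induced cyclin, rose by 1.40 ± 0.11 in C57BL/6 and 1.65 ± 0.11 in Balb/c (adjusted p = 1.86e-04 and 4.55e-05), with an interaction of 0.25 ± 0.16 (adjusted p = 0.696). DNA repair genes gave a median interaction of -0.14 over 22 tested. It was -0.010 without C57BL/6 irradiated replicate 2 and between -0.085 and -0.053 with C57BL/6 sham replicates 2 and 3, C57BL/6 irradiated replicate 1, Balb/c sham replicate 2 and Balb/c irradiated replicate 3 left out in turn.

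**Figure D3:**
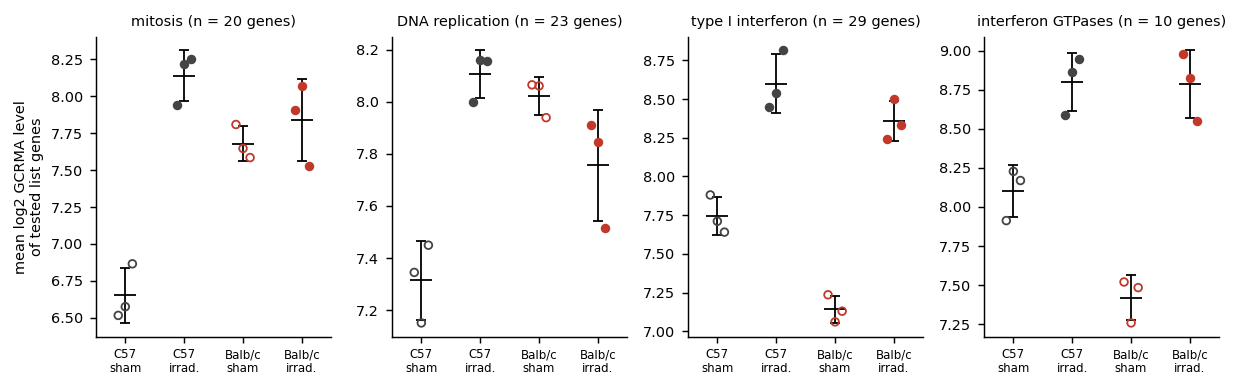
Mean log2 level of the tested genes of 4 lists on each array (points; open for sham, filled for irradiated; grey for C57BL/6, red for Balb/c), with group mean and SD (bars, n = 3). Mitosis and DNA replication genes are lowest in sham C57BL/6, and interferon and GTPase genes are lowest in sham Balb/c.

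Interferon-induced genes rose in both strains in part, and most had an interaction above 0 that was not called. Of 42 type I interferon effectors, 37 were on the array and 29 tested. In C57BL/6 11 rose (median 0.75) and in Balb/c 15 rose (median 0.95), and none fell in either strain. Over all genes tested, 2.21% rose in C57BL/6 and 3.26% in Balb/c. The interaction was above 0 for 23 and below 0 for 6, with a median of 0.37, and was called higher for Ifi44l and lower for Oasl2. In sham mice 10 were lower (5.24% of all genes tested) and 1, Ifi44l, was higher (5.22%) in Balb/c, with a median difference of -0.61. Without the filter, 21 of 37 lay above 0.1, 7 below -0.1 and 9 between. Of all 18193 genes on the array, 4218 lay above 0.1, 4693 below -0.1 and 9282 between. The mean level of the 29 was 7.88, 7.71 and 7.64 in C57BL/6 sham, 8.45, 8.54 and 8.81 in C57BL/6 irradiated, 7.24, 7.06 and 7.13 in Balb/c sham and 8.24, 8.50 and 8.33 in Balb/c irradiated arrays. Every sham Balb/c array lay below every other array, and the irradiated groups overlapped.

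Ifit3, a binding protein of foreign RNA, rose by 1.39 ± 0.32 in C57BL/6 (adjusted p = 0.0436) and 2.54 ± 0.32 in Balb/c (adjusted p = 0.00219). Its interaction of 1.16 ± 0.46 was not called (adjusted p = 0.577). Rtp4, an interferon-induced chaperone of receptors, stood at 8.99, 9.48 and 8.95 in C57BL/6 sham, 10.03, 10.11 and 10.50 in C57BL/6 irradiated, 8.09, 7.58 and 7.86 in Balb/c sham and 9.59, 10.26 and 9.61 in Balb/c irradiated arrays. Its interaction was 0.90 ± 0.32 (adjusted p = 0.558). Eif2ak2, the kinase PKR that senses double-stranded RNA, gave 0.68 ± 0.24 (adjusted p = 0.558). Usp18, which dampens interferon signalling, rose by 2.23 in C57BL/6 and 2.77 in Balb/c (adjusted p = 0.0133 and 0.00326), with an interaction of 0.54 ± 0.55 (adjusted p = 0.818). Irf7, a central interferon regulator, did not pass the filter and was not tested.

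Oasl2, an oligoadenylate synthetase-like antiviral protein, was 1 of the 6 tested effectors with an interaction below 0, against 23 above. At an unadjusted p under 0.05 there were 2 below and 6 above 0, against 4.44% and 3.62% of all genes tested. Oasl2 stood at 3.15, 3.53 and 2.74 in C57BL/6 sham and 5.92, 5.66 and 5.96 in C57BL/6 irradiated arrays. All 3 sham Balb/c arrays were at 2.23, the bottom of the scale, and all 3 irradiated ones at 3.11. It rose by 2.71 ± 0.17 in C57BL/6 (adjusted p = 4.03e-05) and by 0.88 ± 0.17 in Balb/c (adjusted p = 0.0147), with an interaction of -1.82 ± 0.24 (adjusted p = 0.0203). Both Balb/c groups and sham C57BL/6 had means below 4, so the sizes of the rises are uncertain. Oasl2 exceeded 5 only on the 3 irradiated C57BL/6 arrays and so passed the filter through the group where it was high. The call was lost without any 1 of 9 arrays, all but C57BL/6 sham replicates 2 and 3 and C57BL/6 irradiated replicate 2, and was made in 7 of 22 alternatives.

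The interferon-inducible GTPases attack the membranes around intracellular microbes. Of 19 on the list, 11 were on the array and 10 tested, and these genes form clusters of close copies that a probe set may not tell apart. In Balb/c 8 of 10 rose (3.26% of all genes tested), with a median of 1.12. In C57BL/6 1 rose (2.21% of all genes tested), Ifi47 at 1.59 ± 0.27 (adjusted p = 0.0127), and the median was 0.43. The interaction was above 0 for 9 of 10, with a median of 0.72, and none was called. Their mean level was 7.91, 8.23 and 8.17 in C57BL/6 sham, 8.59, 8.86 and 8.94 in C57BL/6 irradiated, 7.52, 7.26 and 7.48 in Balb/c sham and 8.98, 8.83 and 8.55 in Balb/c irradiated arrays. Irradiated arrays were above sham arrays without overlap in both strains, and sham Balb/c was the low group. Gbp6 was the exception at -0.74 ± 0.73. At an unadjusted p under 0.05 there were 4, all above 0, against 3.62% of all genes tested. Gbp7, a guanylate-binding protein, stood at 10.69, 10.97 and 10.77 in C57BL/6 sham, 11.12, 11.22 and 11.10 in C57BL/6 irradiated, 10.12, 9.95 and 10.26 in Balb/c sham and 11.08, 11.53 and 11.35 in Balb/c irradiated arrays. The irradiated groups overlapped, and sham Balb/c was the low group. Its interaction was 0.88 ± 0.20 (adjusted p = 0.227). Igtp and Irgm2, immunity-related GTPases, gave 0.89 ± 0.27 and 0.63 ± 0.20 (adjusted p = 0.465 and 0.491), and Gbp2b, near the bottom of the scale in C57BL/6 at means of 3.23 in both groups, gave 2.14 ± 0.53 (adjusted p = 0.332).

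Promoter sequences are shown for interferon genes because these are known to carry response elements. The core of the interferon-stimulated response element, TTTC and again TTTC with any 2 bases between, was found on either strand in 7 of 8 GTPase genes with an entry (87.5%) and in 10 of 21 interferon effectors (47.6%), against 3.44% of all windows and 3.79% of tested genes. Within the 250 bases before the start it was in 7 of 8 and in 6 of 21 (28.6%), against 2.98% of all windows. TTCNNNGAA, the gamma-activated site, was in 3 of 8 and in 7 of 21 (33.3%), against 8.30% of all windows. The 250 bases before the start of Ifi44l (chr3:151762892-151763141, minus strand) and Oasl2 (chr5:114896684-114896933, plus strand), the interferon effectors with a called interaction, hold no such core. That says only that these letters are not in this window. They follow on the gene's strand with Gbp7 (chr3:142530086-142530335, plus strand), picked after its values were seen, where the single match is in capitals and begins 53 bases before the start.
Ifi44l: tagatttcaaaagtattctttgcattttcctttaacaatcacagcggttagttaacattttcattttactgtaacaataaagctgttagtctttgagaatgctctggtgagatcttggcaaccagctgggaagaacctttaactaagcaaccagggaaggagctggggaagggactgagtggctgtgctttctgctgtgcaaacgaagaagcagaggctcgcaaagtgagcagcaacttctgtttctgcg
Oasl2: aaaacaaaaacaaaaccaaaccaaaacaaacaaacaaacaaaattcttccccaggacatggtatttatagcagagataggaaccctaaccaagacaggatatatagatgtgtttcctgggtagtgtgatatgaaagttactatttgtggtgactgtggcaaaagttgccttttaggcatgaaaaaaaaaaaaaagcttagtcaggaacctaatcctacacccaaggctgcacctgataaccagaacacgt
Gbp7: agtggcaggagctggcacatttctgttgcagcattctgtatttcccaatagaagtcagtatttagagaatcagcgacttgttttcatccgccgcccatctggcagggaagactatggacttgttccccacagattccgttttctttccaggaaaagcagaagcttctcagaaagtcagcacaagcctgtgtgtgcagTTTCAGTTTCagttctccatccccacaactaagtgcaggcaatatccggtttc

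The Ifi200 family of DNA sensors had 5 of 15 genes tested, 4 with an interaction above 0, none called, and a median of 0.59 (0.27 without Balb/c sham replicate 2). Ifi204 gave 1.32 ± 0.63 (adjusted p = 0.629), and the exception, Ifi213, -2.71 ± 1.07 (adjusted p = 0.577). Ifi202b, a family member known to be poorly expressed in C57BL/6, was among the 10 genes with the smallest p above 0. It stood between 2.37 and 2.92 on all 6 C57BL/6 arrays, at 8.65, 8.65 and 8.53 in Balb/c sham and at 10.23, 10.48 and 9.91 in Balb/c irradiated arrays. Its rise in Balb/c was 1.59 ± 0.20 (adjusted p = 0.00215), and the interaction of 1.44 ± 0.28 was not called (adjusted p = 0.172). As with Ifi44l, nothing could be read of its response in C57BL/6.

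Of 22 chemokine and receptor genes tested, 7 rose and 1 fell in C57BL/6 (median response 0.75), and 5 rose and none fell in Balb/c (median 0.60). Over all genes tested, 2.21% rose and 1.46% fell in C57BL/6, and 3.26% rose and 2.89% fell in Balb/c. The median interaction over the 22 genes was -0.10 and changed sign without Balb/c sham replicate 3 (0.02). At an unadjusted p under 0.05, 4 were above and 2 below 0, against 3.62% and 4.44% of all genes tested. Ccl12, a ligand of Ccr2, stood at 12.17, 11.68 and 11.90 in C57BL/6 sham, 12.80, 12.80 and 12.99 in C57BL/6 irradiated, 10.23, 10.79 and 10.87 in Balb/c sham and 12.96, 12.81 and 12.63 in Balb/c irradiated arrays. Sham Balb/c was again the low group and the irradiated groups overlapped. Ccl12 rose in both strains, by 0.94 ± 0.18 and 2.17 ± 0.18 (adjusted p = 0.0235 and 1.82e-04), and its interaction was 1.22 ± 0.26 (adjusted p = 0.211). Ccl8, another monocyte attractant, gave 2.30 ± 0.62 (adjusted p = 0.404) and Ccl9 1.21 ± 0.22 (adjusted p = 0.155), where a second, dimmer probe set of Ccl9 gave 0.45. On the other side, Ccr2, the receptor that monocytes carry, gave -1.34 ± 0.59 (adjusted p = 0.617), and Ccrl2, an atypical chemokine receptor, -0.93 ± 0.24 (adjusted p = 0.365). Among 21 cytokine and inflammasome genes, 10 were below and 11 above 0 and Il6 alone was called.

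**Figure D4:**
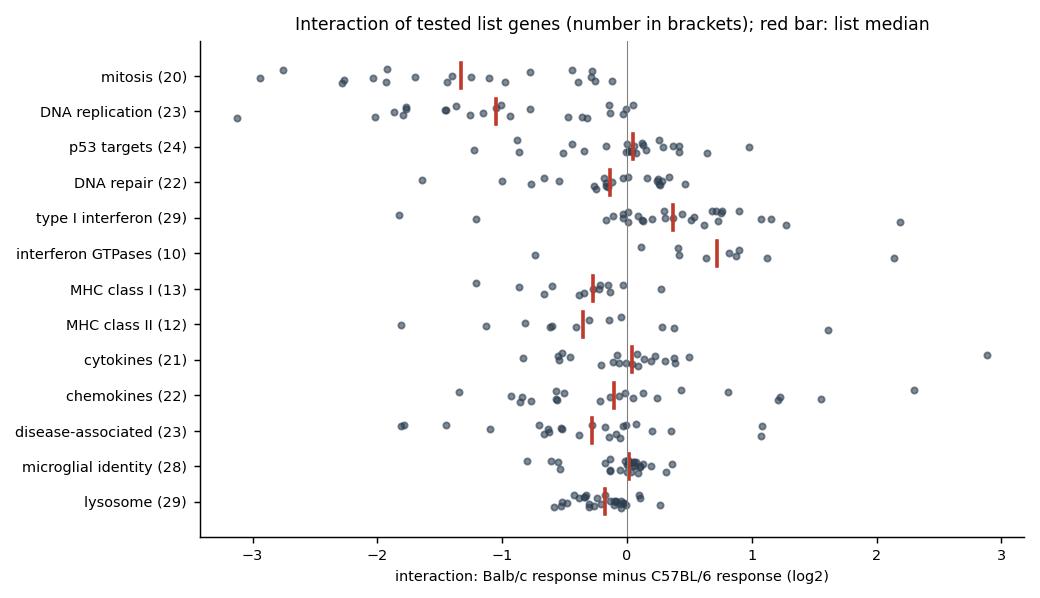
Interaction in log2 units, the Balb/c minus the C57BL/6 response, of each tested gene (points) in 13 lists, with the number tested in brackets and the median as a red bar. Among these 13 lists only the mitosis and DNA replication medians, at -1.33 and -1.05, lie beyond 1 on either side of 0. The neutrophil list, with 5 genes tested and a median of 3.65, is not shown.

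Antigen presentation and activated microglia genes leaned below 0 without a call. The interaction was below 0 for 12 of 13 MHC class I genes (median -0.27), for 9 of 12 class II genes (median -0.36) and for 18 of 23 genes of activated microglia (median -0.28). The class II median was -0.13, -0.20 and -0.14 with C57BL/6 sham replicate 2, C57BL/6 irradiated replicate 2 and Balb/c sham replicate 3 left out in turn, and the activated microglia median -0.17 without Balb/c irradiated replicate 2 and -0.073 with the 3′ minus 5′ covariate. H2-Ab1, a class II beta chain, rose by 2.79 ± 0.60 in C57BL/6 (adjusted p = 0.0329) and changed by 0.98 ± 0.60 in Balb/c (adjusted p = 0.371), with an interaction of -1.81 ± 0.85 (adjusted p = 0.627). H2-Ea, a class II chain missing from the C57BL/6 haplotype, gave 1.61 ± 0.75 (adjusted p = 0.627). With the chain missing in C57BL/6, this value cannot be read as a difference in response between the strains. H2-D1 and H2-K1, the classical class I heavy chains, gave -1.21 ± 0.63 and -0.86 ± 0.48 (adjusted p = 0.656 and 0.664). They were -0.66 and -0.46 without Balb/c irradiated replicate 2, -1.85 and -1.34 without Balb/c irradiated replicate 1, and -0.14 and -0.11 with the 3′ minus 5′ covariate.

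Apoe, the lipid carrier that activated microglia secrete, was 12.22, 11.78 and 12.29 in C57BL/6 sham, 13.02, 13.32 and 13.80 in C57BL/6 irradiated, 13.59, 13.52 and 13.24 in Balb/c sham and 13.49, 12.33 and 13.01 in Balb/c irradiated arrays. Sham C57BL/6 was the low group. Apoe rose in C57BL/6 by 1.28 ± 0.29 (adjusted p = 0.0384) and changed by -0.51 ± 0.29 in Balb/c (adjusted p = 0.331), an interaction of -1.79 ± 0.41 (adjusted p = 0.235). Axl, a receptor for dying cells, and Lgals3, galectin-3, gave -1.45 ± 0.64 and -1.10 ± 0.45 (adjusted p = 0.617 and 0.583). Cst7, an inhibitor of lysosomal proteases, rose in both strains, by 2.61 and 2.96 (adjusted p = 0.00112 and 3.20e-04), with an interaction of 0.36 ± 0.39 (adjusted p = 0.829).

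For genes of microglial identity no difference in response was called. All 28 on the array were tested, 11 lay below and 17 above 0, and the median of 0.01 took either sign with single arrays left out, from -0.02 to 0.07. P2ry12, Tmem119, a membrane protein particular to microglia, and Cx3cr1, the fractalkine receptor, gave -0.14 ± 0.20, 0.03 ± 0.13 and 0.13 ± 0.15 (adjusted p = 0.879, 0.967 and 0.842). Crybb1, a crystallin that young microglia express, fell by 1.30 on the log2 scale in Balb/c (adjusted p = 0.00336) and changed by -0.50 in C57BL/6 (adjusted p = 0.155), with an interaction of -0.80 ± 0.26 (adjusted p = 0.546). Small shifts below 0 ran through abundant housekeeping lists. The interaction was below 0 for 26 of 29 lysosome genes (median -0.18), 26 of 31 ribosomal protein genes (median -0.15) and 33 of 41 respiratory chain genes (median -0.15), without a call. The lysosome median was -0.11 and the respiratory chain median -0.07 without Balb/c irradiated replicate 2, the array with the highest 3′ minus 5′ difference. With that difference as a covariate both medians were -0.07, and without both arrays that stood apart the respiratory chain median was 0.0075. The ribosomal median was -0.08 without Balb/c sham replicate 2. With C57BL/6 irradiated replicate 3, then Balb/c irradiated replicate 1, then replicate 3 of that group left out, the respiratory chain median was -0.07, -0.08 and -0.26.

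The remaining genes with the smallest p were of mixed function. Lrba, a vesicle trafficking protein needed to recycle CTLA4, stood at 12.38, 12.33 and 12.41 in C57BL/6 sham, 12.14, 12.25 and 12.13 in C57BL/6 irradiated, 9.41, 9.06 and 9.86 in Balb/c sham and 11.20, 11.24 and 10.61 in Balb/c irradiated arrays. Sham Balb/c was the low group. Its interaction was 1.77 ± 0.29 (adjusted p = 0.0822), a second probe set gave 1.77, and the call was made without Balb/c sham replicate 3 or Balb/c irradiated replicate 3 (adjusted p = 0.0366 and 0.0487). Anxa3, an annexin, gave 1.00 ± 0.20 (adjusted p = 0.172) and Ctla2b, an inhibitor of cysteine proteases, 0.93 ± 0.15 (adjusted p = 0.0822), each with sham Balb/c as the lowest group. Dpp7, a lysosomal dipeptidase, gave -1.07 ± 0.20 (adjusted p = 0.172) and its other probe set -1.11. Rasl2-9 and Glrp1 gave 0.83 ± 0.16 and -0.93 ± 0.17 (adjusted p = 0.172 and 0.155). D630023F18Rik, a gene known by a clone number, lay at the bottom of the scale in all but the C57BL/6 irradiated arrays, at 5.41, 7.66 and 6.99. It passed the filter only through those 3 arrays, so the group that makes its interaction also admitted it to the test. The fitted interaction was -4.42 ± 0.59 (adjusted p = 0.0203), against 3 groups at the bottom of the scale, and was called in 6 of 22 alternatives. Leaving out any 1 of 10 arrays ended its call, all but C57BL/6 irradiated replicates 1 and 2. Among the 20 genes that led the ranking by p, 10 above and 10 below 0, which were chosen for their interaction, sham arrays differed between the strains by a call in 18 and irradiated arrays in 12. The share called over all genes was 10.5% in sham and 8.97% in irradiated mice (4.38% higher and 4.59% lower in Balb/c). The interaction equals the strain difference in irradiated arrays less that in sham arrays. Genes chosen for it must therefore differ between the strains in sham or irradiated arrays, and their excess over all genes is no separate result.

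Ptger3, a prostaglandin E receptor, fell in both strains. It stood at 8.10, 7.74 and 7.87 in C57BL/6 sham, 6.37, 5.57 and 5.49 in C57BL/6 irradiated, 7.85, 7.51 and 7.71 in Balb/c sham and 3.25, 4.61 and 3.06 in Balb/c irradiated arrays. The sham groups overlapped and the irradiated groups did not. It fell by 2.10 on the log2 scale in C57BL/6 (adjusted p = 0.0130) and by 4.05 in Balb/c (adjusted p = 2.75e-04). Its interaction of -1.95 ± 0.51 was not called (adjusted p = 0.391), except without Balb/c irradiated replicate 2 (adjusted p = 0.0460) and with the 18S signal as a covariate. Irradiated Balb/c arrays at 3.25 and 3.06 were near the bottom of the scale, so the sizes of the Balb/c fall and of the interaction are uncertain.

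Markers of other cells were read beside these results. Monocyte markers (12 of 13 above 5 in at least 3 arrays) rose in both strains, 8 of 12 in C57BL/6 and 7 of 12 in Balb/c. Over all genes tested, 2.21% and 3.26% rose. The summed linear level of the monocyte markers went from between 4420 and 7170 to between 13300 and 14800 in C57BL/6. In Balb/c it went from between 3440 and 4770 to between 10200 and 11500. Their median interaction was -0.06 and changed sign with single arrays, at 0.17, 0.07 and 0.12 with C57BL/6 sham replicate 2, C57BL/6 irradiated replicate 3 and Balb/c sham replicate 1 left out in turn. Their part in the cell cycle and interferon results was not tested. Of 12 neutrophil markers 5 were tested, 4 with an interaction above 0 and Csf3r below, at -0.24, with a median of 3.65 (2.13 without C57BL/6 sham replicate 1). Camp and Ngp were above 5 on C57BL/6 sham replicate 1, C57BL/6 irradiated replicate 3 and Balb/c irradiated replicates 1 and 2 only, and Ltf on C57BL/6 irradiated replicate 3 only, at 9.04. The markers S100a8 and S100a9, granule and danger proteins, gave 3.89 ± 0.95 and 2.72 ± 0.91 (adjusted p = 0.323 and 0.558). They rose in Balb/c, by 4.10 ± 0.67 and 3.19 ± 0.64 (adjusted p = 0.00697 and 0.0171), and changed by 0.21 ± 0.67 and 0.47 ± 0.64 in C57BL/6 (adjusted p = 0.881 and 0.703). S100a8 stood at 10.49, 9.22 and 8.29 in C57BL/6 sham, 10.10, 8.29 and 10.24 in C57BL/6 irradiated, 5.75, 6.11 and 6.56 in Balb/c sham and 10.09, 11.33 and 9.31 in Balb/c irradiated arrays. Sham Balb/c was the low group, as for Il6 and Ly6e. The 12 neutrophil markers summed to between 1560 and 3730, 1560 and 3480, 1410 and 1620, and 1740 and 4360 in the same order of groups, and Mmp8, Elane, Mpo and Cxcr2 were above 5 on no array. Of the T and NK cell markers 14 of 17, of the B cell markers 7 of 10 and of the erythroid markers all 5 were above 5 on no array, Cd3e and Ms4a1 among them. Astrocyte markers, all 16 of them above 5 in at least 3 arrays, summed to between 34700 and 43200 and between 46200 and 68800 in C57BL/6, and to between 37900 and 45200 and between 55600 and 78500 in Balb/c sham and irradiated arrays. Endothelial markers summed to between 15500 and 19300, 18400 and 28000, 14800 and 21200, and 28200 and 34400 in the same order, with Pecam1, Cdh5 and Tie1 above 5 on no array. The part of RNA from these cells in the Balb/c results was not tested.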

How the data were processed

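Microarray values of 12 arrays, 1 mouse each and 3 in each group, were used. The authors deposited log2 expression values. All arrays share 1 distribution, and the submitters' processing notes name GCRMA. Of 45101 probe sets, 64 were controls, 34945 had 1 gene symbol, 932 several and 9160 none, from the platform annotation, with symbols updated through RefSeq. Values of 1 probe set per gene were fitted with limma 3.58.1 in R 4.3.3 (lmFit and eBayes over the 4 groups, 8 residual degrees of freedom), with Benjamini-Hochberg adjustment over 9120 genes. The script was tested on simulated data. The scanner files were not used here. Named were the 10 genes with the smallest p in each direction, up to 4 members of each of 33 gene lists with the smallest interaction p, and 40 fixed genes. The members and lists were chosen with earlier results of these data known, and Nuf2, Mcm4, Ifi47 and Gbp6 were named after their values were seen. Other filters, scalings, covariates, fits and each array left out in turn were tried as alternatives. Promoter windows came from RefSeq (GRCm38.p6).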

Additional observations from a re-analysis of the deposited data

Results flagged for a closer look

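For 7 genes a test of the difference in response between the strains, the interaction in limma, gave an adjusted p under 0.05. The Balb/c response was the higher one for Il6, by 2.88 (log2), for Ly6e, by 2.47, and for Chsy1, by 1.15. For Mcm5 it was the lower one, with an interaction of -1.77. The other 3 have at least 1 group mean below 4, so their fitted values are not measured differences in response. Ifi44l gave 2.19 with both C57BL/6 groups at the bottom of the scale. Oasl2 and D630023F18Rik gave -1.82 and -4.42 with 3 group means below 4, and both exceeded 5 only on the 3 irradiated C57BL/6 arrays that admitted them to the test. They were not among the genes tested with a filter above 7 or a mean above 5.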

How the results depend on the processing

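The interaction gave 7 calls, 4 higher and 3 lower. Without a filter it gave 2 calls (1 higher, 1 lower), with the 3′ minus 5′ difference as a covariate 3 (0 lower), without both arrays that stood apart 2 (2 higher, 0 lower), with a mean above 5 (chosen after seeing the data) 4 (1 lower), at an adjusted p under 0.1 11 (5 lower), and with a filter above 7 5 (1 lower). Leaving out each array gave 2 to 8 calls, 2 to 5 higher and 0 to 4 lower. With C57BL/6 sham replicates 1 and 2 and irradiated replicate 3 left out in turn the count was 3, 4 and 3, and with Balb/c sham replicates 1 and 2 and irradiated replicate 3 left out it was 2, 3 and 4. The labels do not say whether the replicate numbers pair the arrays, and the main fit did not use them. Of 18 same-numbered pairs, 9 had a correlation of deviations over 0.1 (median 0.0996, range -0.0478 to 0.447). Of 12 arrays, 9 correlated best with their own number. Differently numbered pairs had a median of -0.0898, with 9 of 36 over 0.1. With the replicate block 7 genes were called, 5 of them shared: Chsy1 (adjusted p = 0.140) and Oasl2 (0.0679) were not called, and Ccl8 (0.0108) and Cd244a (0.0185) were.

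The 335 C57BL/6 calls became 155 without a filter, 104 without both arrays, 725 at an adjusted p under 0.1, 179 with 2-fold as well, and 113 to 351 with arrays left out (207 without sham replicate 1, 163 without sham replicate 2, 214 without irradiated replicate 1, 113 without irradiated replicate 3). The 561 Balb/c calls became 283, 361, 1076 and 249 under the same settings, 104 with the 3′ minus 5′ covariate, 39 with the 18S covariate, and 218 to 592 with arrays left out (268 without sham replicate 1, 218 without sham replicate 2, 337 without irradiated replicate 2, 280 without irradiated replicate 3). The cause was not tested.

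Some interactions of single genes that were not called changed sign. With the mean of all kept probe sets Ccng1 was at -0.15, Ifi209 at -0.17 and Cx3cr1 at -0.32. Without both arrays Cd74 was at 0.11. Trp53inp1 was at -0.14 with the 3′ minus 5′ covariate, -0.0084 with the 18S covariate, -0.041 without both arrays and -0.069 to 0.21 with arrays left out. Ccl2 was at 0.013 when centred on the median, 0.12 with the 18S covariate and -0.21 to 0.35 with arrays left out. With arrays left out, Junb ran from -0.41 to 0.012, Mdm2 from -0.065 to 0.30 and Tmem119 from -0.014 to 0.085. The list medians of mitosis and DNA replication stayed below 0 over 24 alternatives, from -1.49 to -0.78 and from -1.24 to -0.62, and those of interferon effectors and GTPases above 0, from 0.20 to 0.48 and from 0.54 to 0.82. Testing every kept probe set was not run for single genes and list medians. Signal near the bottom of the scale limits Ifi44l in C57BL/6 and Oasl2 and D630023F18Rik in 3 groups each.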
